A study of Mus musculus with 24 samples.

Results

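The 10 genes described here encode the FOS proteins (Fos, Fosb, Fosl1, Fosl2) and the JUN proteins (Jun, Junb, Jund) of the AP-1 transcription factor, and 3 further factors of the immediate early and stress response (Egr1, Ier3, Atf3). They were taken by name, with earlier results of these data known, from the 45706 gene identifiers counted in 24 RNA-seq libraries of mouse intestinal organoids. Small intestinal (SI) and colonic (COL) organoids came from C57BL/6N mice of 3 genotypes, all carrying the Villin::CreERT2 transgene, which expresses a 4-hydroxytamoxifen (4-HT)-dependent Cre recombinase from the Villin promoter of intestinal epithelium. BRAF organoids carried BraffloxV600E/+, p53 organoids carried Trp53LSL-R172H/+, and BRAFp53 organoids carried both alleles. In each genotype and tissue, "on" organoids had received 4-HT for 24 h (0.5 µM for SI, 3.5 µM for COL) and "off" organoids ethanol, which makes 12 groups of 2 libraries. RNA was taken on day 8 for SI and on day 3 for COL organoids, and the COL medium additionally held Wnt3a and CHIR99021. Each genotype was 1 donor culture per tissue, treated in duplicate per the study's methods, and no library came from 4-HT-treated organoids without a conditional allele. For on against off changes and their differences, p-values therefore measure the spread between duplicates of a donor culture, shared over the groups of a fit. In the comparison of off organoids they measure the spread between cultures. Genotype and donor cannot be told apart, and neither can tissue, donor, 4-HT dose, day and medium.

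AP-1 is a dimer of basic leucine zipper proteins. JUN proteins pair among themselves or with FOS proteins, whereas FOS proteins need a JUN partner, and the dimers bind a short palindrome in promoters and enhancers. Fos, Fosb, Junb and Egr1 are textbook immediate early genes: activated RAF-MEK-ERK signalling phosphorylates ternary complex factors such as ELK1 at serum response elements, and the genes are transcribed within minutes without new protein synthesis. Mutant BRAF kinase feeds that cascade continuously. Fosl1 (FRA-1) and Fosl2 (FRA-2) are later FOS proteins, and FRA-1 is known for responding to sustained ERK activity. Jun is also controlled by JNK signalling and by AP-1 itself, and Jund is expressed in most cells at rest. Egr1 is a zinc finger factor, Ier3 is an early response protein linked to survival and ERK signalling, and Atf3 is a leucine zipper factor induced by many stresses.

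In the GENCODE M21 annotation of GRCm38 the FOS genes are Fos (ENSMUSG00000021250, chr12:85473890-85477273, + strand), Fosb (ENSMUSG00000003545, chr7:19302696-19310051, − strand), Fosl1 (ENSMUSG00000024912, chr19:5447547-5455946, + strand) and Fosl2 (ENSMUSG00000029135, chr5:32135801-32157842, + strand). The JUN genes are Jun (ENSMUSG00000052684, chr4:95049034-95052222, − strand), Junb (ENSMUSG00000052837, chr8:84974484-84978718, − strand) and Jund (ENSMUSG00000071076, chr8:70698949-70700616, + strand), the last 2 on the same chromosome. The others are Ier3 (ENSMUSG00000003541, chr17:35821684-35822923, + strand), Atf3 (ENSMUSG00000026628, chr1:191170296-191218039, − strand) and Egr1 (ENSMUSG00000038418). Counts were taken over the exons of each gene.

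Promoter sequences are shown for the 3 members that rose with 4-HT in all 4 BRAF-bearing cultures (Fos, Ier3 and Atf3) and for Jun, which fell in COL BRAFp53 and rose in SI BRAFp53. They are RefSeq's GRCm38.p6 sequence from 250 bases before to 50 bases after the annotated start, given 5′ to 3′ on the strand of the gene. Fos lies at chr12:85473640-85473939 (+ strand), Ier3 at chr17:35821463-35821762 (+), Atf3 at chr1:191183284-191183583 (−) and Jun at chr4:95052173-95052472 (−). Capitals mark every match, on either strand, to an AP-1 site (TGANTCA), a cyclic AMP response element (CRE, TGACGTCA), a CRE half-site (TGACGT, which the full CRE contains), an AP-1-like octamer (TGACATCA), an EGR site (GCGNGGGCG), a CArG box or a TATA box (TATAAA).
Fos: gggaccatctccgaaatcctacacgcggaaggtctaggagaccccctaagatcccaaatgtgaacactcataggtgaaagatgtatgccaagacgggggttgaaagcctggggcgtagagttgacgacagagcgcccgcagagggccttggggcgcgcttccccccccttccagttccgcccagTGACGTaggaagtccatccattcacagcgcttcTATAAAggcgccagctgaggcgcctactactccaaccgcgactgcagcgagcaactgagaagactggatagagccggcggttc
Ier3: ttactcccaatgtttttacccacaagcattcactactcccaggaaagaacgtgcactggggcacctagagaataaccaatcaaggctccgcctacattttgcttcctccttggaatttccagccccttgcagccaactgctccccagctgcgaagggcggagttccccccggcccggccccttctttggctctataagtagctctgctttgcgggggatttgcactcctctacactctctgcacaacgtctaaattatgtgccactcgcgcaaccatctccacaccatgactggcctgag
Atf3: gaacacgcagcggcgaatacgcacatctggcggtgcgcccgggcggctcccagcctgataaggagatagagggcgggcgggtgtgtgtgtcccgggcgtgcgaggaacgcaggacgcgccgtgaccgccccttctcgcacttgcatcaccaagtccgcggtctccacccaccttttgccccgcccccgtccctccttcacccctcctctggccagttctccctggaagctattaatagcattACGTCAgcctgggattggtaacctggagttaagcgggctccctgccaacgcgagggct
Jun: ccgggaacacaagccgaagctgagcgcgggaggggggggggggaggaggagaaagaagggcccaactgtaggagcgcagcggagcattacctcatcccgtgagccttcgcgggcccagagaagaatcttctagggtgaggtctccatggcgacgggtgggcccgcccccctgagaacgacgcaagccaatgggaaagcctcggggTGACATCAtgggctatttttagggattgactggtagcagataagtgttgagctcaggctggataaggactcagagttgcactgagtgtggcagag
The Fos promoter held a CRE half-site beginning at position -66 and a TATA box at -33, counted from the start, the Atf3 promoter held a half-site on the other strand (ACGTCA) at -8, and the Jun promoter held the octamer at -45. The Ier3 window held none of the 7 motifs. Of all 32851 RefSeq promoters of this length, 7.51% held the half-site, 3.62% the octamer and 13.6% the TATA box, so these letters are common. The full CRE was in 1.79%, the AP-1 site in 7.81% and the CArG box in 1.63% of promoters, and in none of the 8 windows of members. The Jund window (chr8:70697489-70697788) ends before the gene span given above begins, so it need not hold that gene's promoter. The Atf3 window lies inside the span of its gene. Bases further than 250 before a start were not searched, and Egr1 and Fosl1 have no sequence shown. A missing match therefore does not show that a gene lacks a serum response element. Fosl2 and Fosb each held an EGR site (GCGGGGGCG, at -79 and -50), a motif present in 5.55% of promoters.

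Levels are counts per 1000000 counts of the library (CPM) after TMM scaling, within a tissue unless stated otherwise. The 24 libraries held 51.2 M to 78.2 M counts in COL and 44.4 M to 68.2 M in SI organoids, so that 3 counts, the limit a count of 0 allows, correspond to 0.0384 to 0.0586 CPM in COL and 0.0440 to 0.0676 CPM in SI. Epithelial markers were present throughout (Epcam 363 to 720 CPM). The colonic marker Car1 was 1472 to 20033 CPM in COL and at most 0.240 CPM in SI, and the SI marker Lct was 2.86 to 111 CPM in SI and at most 0.297 CPM in COL, whereas Lyz1 went against the labels (255 to 1904 CPM in COL, 36.4 to 139 CPM in SI) and Hoxb13 was at most 0.482 CPM in COL. Gata4, an SI marker, was 35.8 to 54.8 CPM in the COL BRAF culture and at most 2.95 CPM in the other COL cultures. Trp53, the targeted gene of the p53 allele, rose from 222 and 244 to 449 and 447 CPM in COL p53 (log2 change 0.94, adjusted p = 0.0227), and read 145 and 145 CPM off against 241 and 251 CPM on in SI p53 (log2 change 0.76, adjusted p = 0.194). The level of Braf checks nothing, because the recombined allele is read from the same locus. Xist, the RNA of the inactive X chromosome of females, was 104 to 150 CPM in the SI p53 and SI BRAFp53 cultures and at most 0.0440 CPM in COL, so the SI cultures came from donors of both sexes, and donor sex cannot be told apart from tissue in the p53 and BRAFp53 cultures. In this measure 1 library stood apart: SI BRAF on replicate 1 held 15.4 CPM of Xist, against 0.206 to 0.437 CPM in the other 3 libraries of that culture. Results of SI BRAF are given below with and without it.

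Fosl1, Jun, Junb and Jund each share exon sequence with a gene on the opposite strand (Ccdc85b, Junos, Prdx2 and Gm11175, respectively), and the sources used here do not state whether strand was used in counting. Prdx2 was high, at 232 to 333 CPM as group means, and its changes ran from -0.25 to 0.10 log2 with none passing the test. Gm11175 was at 0 in every group. Ccdc85b was at most 1.17 CPM, with a log2 change of -1.74 in SI BRAF (adjusted p = 0.0171). Junos was at most 1.48 CPM, and its log2 change in COL BRAFp53 was -2.17 (adjusted p = 0.0282), the comparison in which Jun fell. In bulk organoid RNA, fewer cells of a type and less RNA per cell cannot be told apart.

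In off organoids, COL cultures held more Fos, Fosl1, Jun, Egr1, Ier3 and Atf3 than SI cultures. For this comparison the 2 off libraries of each culture were summed, giving 3 COL against 3 SI cultures, and CPM were scaled over all 24 libraries. Of the 10 members, 6 were higher in COL and 0 lower, where 17% of all 17789 genes tested were higher and 12.6% lower (29.6% in all). Fos was 55.3, 67.7 and 37.5 CPM in the COL BRAF, p53 and BRAFp53 cultures against 13.9, 7.83 and 9.53 CPM in the SI cultures, 5.26-fold higher in COL (log2 difference 2.39 ± 0.30, SE, adjusted p = 0.00289). Jun was 20.5, 20.8 and 43.0 CPM in COL against 6.68, 3.95 and 4.41 CPM in SI (5.66-fold, log2 SE 0.37, adjusted p = 0.00445). For both genes the lowest COL culture lay above the highest SI culture.

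Ier3 was 78.3, 175 and 81.6 CPM in COL and 18.7, 20.4 and 28.9 CPM in SI (2.34 ± 0.36, adjusted p = 0.00518), with the COL p53 culture far above the other two. Atf3 was 15.9, 15.4 and 11.3 CPM in COL and 4.94, 3.31 and 3.54 CPM in SI (1.85 ± 0.26, adjusted p = 0.00366). Egr1 was 22.8, 17.5 and 19.3 CPM in COL and 10.8, 6.66 and 8.72 CPM in SI (1.21 ± 0.22, adjusted p = 0.00831). None of these 3 genes overlapped between the tissues. Fosl1 showed the largest ratio of the members called, 2.14, 4.64 and 4.15 CPM against 0.553, 0.0975 and 0.224 CPM (3.56 ± 0.72, adjusted p = 0.0116), on low SI counts, and its call was lost without the SI BRAFp53 culture (3.35, adjusted p = 0.0519). With the COL BRAF culture, which carried Gata4, left out, the number of members called stayed at 6.

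The other 4 members did not pass this test. Jund was 20.4, 9.21 and 26.0 CPM in COL and 21.4, 14.2 and 10.8 CPM in SI (log2 difference 0.28, 95% interval -0.52 to 1.07), and the tissues overlapped. Fosl2 held a nearly fixed level of 54.7 to 56.5 CPM in COL and 46.6 to 50.7 CPM in SI. Its difference was 0.23 (interval 0.03 to 0.44, unadjusted p = 0.0625 and adjusted p = 0.138 with edgeR). Junb had the opposite sign, with 7.11 to 10.5 CPM in COL and 11.4 to 13.0 CPM in SI (-0.42, interval -0.79 to -0.04, adjusted p = 0.143), and Fosb was at most 0.273 CPM in every off culture.

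**Figure D1:**
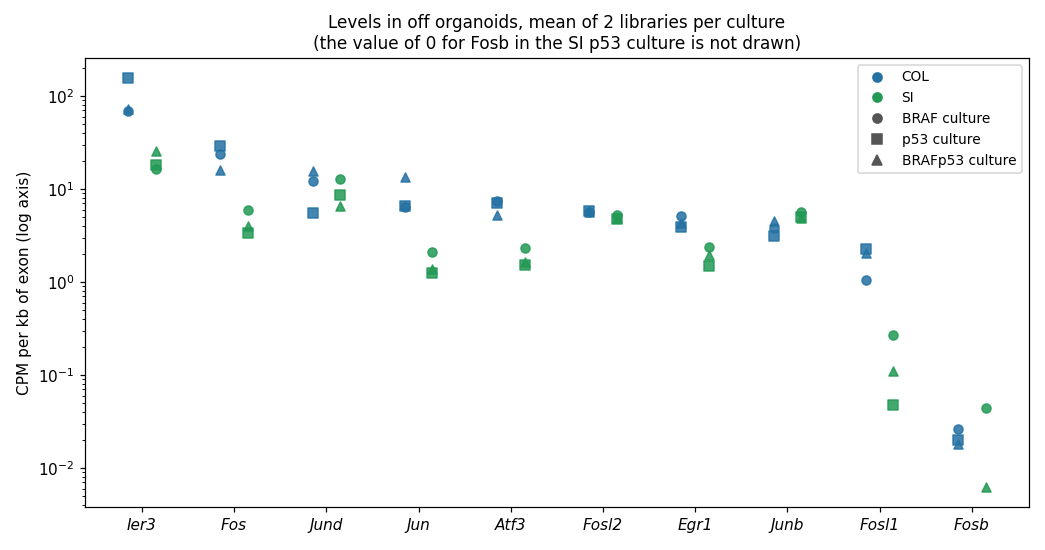
Levels of the 10 members in off organoids as CPM per kilobase of exon (log axis), 1 point per culture (mean of 2 libraries), coloured by tissue and shaped by genotype. Ier3 is the highest member in both tissues, Fos is second in COL (mean 22.7) but below Jund, Junb and Fosl2 in SI (mean 4.44), and Fosl1 and Fosb lie lowest; Fosb at 0 in the SI p53 culture cannot be drawn on a log axis.

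Per kilobase of exon, which allows genes to be compared, the order in COL off organoids was Ier3 (98.6 ± 48.4 CPM per kb, SD, n = 3 cultures), Fos (22.7 ± 6.45), Jund (11.1 ± 5.12), Jun (8.81 ± 4.05), Atf3 (6.58 ± 1.18), Fosl2 (5.73 ± 0.0981), Egr1 (4.43 ± 0.601), Junb (3.81 ± 0.740), Fosl1 (1.79 ± 0.652) and Fosb (0.0216 ± 0.00439). The neighbours from Jund to Fosl2 did not differ beyond their SD, nor did Egr1 and Junb. In SI off organoids the order was Ier3 (20.0 ± 4.84), Jund (9.29 ± 3.24), Junb (5.20 ± 0.384), Fosl2 (4.97 ± 0.230), Fos (4.44 ± 1.34), Egr1 (1.94 ± 0.456), Atf3 (1.82 ± 0.410), Jun (1.57 ± 0.458), Fosl1 (0.143 ± 0.116) and Fosb (0.0166 ± 0.0236). Here Junb, Fosl2 and Fos lay within each other's SD, as did Egr1, Atf3 and Jun, and also Fosl1 and Fosb. The places of Fosl1, Jun, Junb and Jund could differ if reads shared with their opposite-strand neighbours were counted without regard to strand.

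The central comparison was on against off in each culture. With edgeR's quasi-likelihood test and Benjamini-Hochberg adjustment over all genes, 8 members rose and 0 fell in COL BRAF, where 10.3% of genes rose and 9.61% fell (19.9% in all). In COL BRAFp53 5 rose and 1 fell, against 9.95% and 7.76% of genes (17.7%). In SI BRAF 5 rose and 1 fell, against 17.5% and 14.2% (31.7%), or 7 members in all without the library that stood apart (29.7% of genes), and in SI BRAFp53 5 rose and 0 fell, against 6.98% and 4.53% (11.5%). Median log2 changes over the 10 members were 1.04, 0.61, 0.51 and 0.93 in these 4 comparisons, beside medians of -0.01, -0.04, -0.06 and -0.03 over all genes. Fos, Ier3 and Atf3 rose in all 4, as did 410 of the 16307 genes tested in all 4 (2.51%). Because the members were chosen with earlier results of these data known, their counts beside all genes are descriptive and partly reflect that choice.

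On and off libraries did not overlap for 9 members, all higher on, in COL BRAF (60% of all genes did not overlap), for 7 higher and 2 lower in COL BRAFp53 (57%), for 6 higher and 2 lower in SI BRAF (63.2%) and for 8 higher and 1 lower in SI BRAFp53 (54.8%). The SI BRAF on library that did not stand apart lay above both off libraries for 8 members and below both for 2, as 82.6% of genes lay outside them. In COL p53 this held for 2 higher and 0 lower (39%), and in SI p53 for 4 higher and 1 lower (35.5%).

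**Figure D2:**
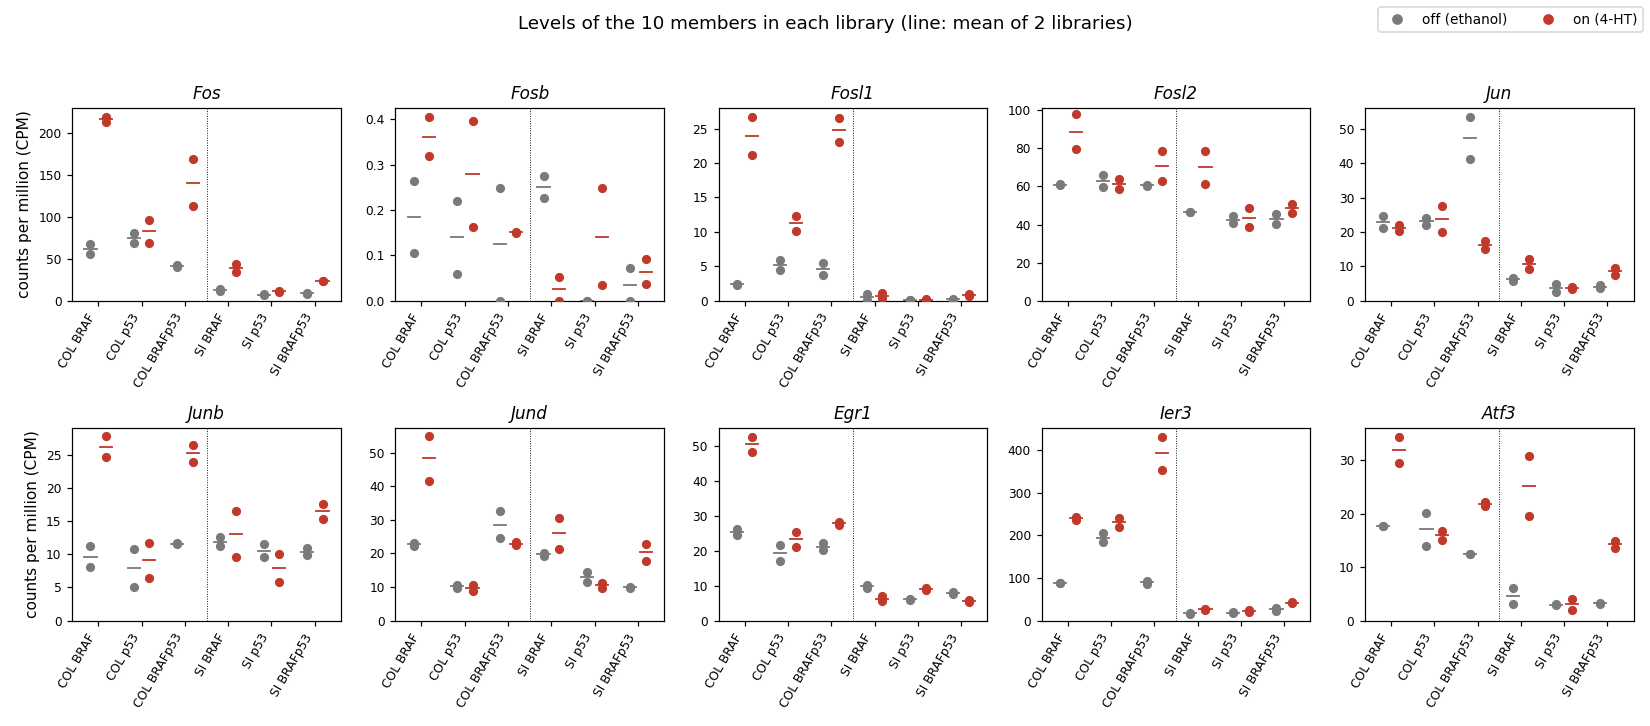
CPM of the 10 members in each of the 24 libraries, 1 panel per gene with its own vertical axis from 0; grey points are off, red points on libraries, lines are means of 2 libraries and the dotted line separates COL from SI cultures. Fos, Ier3 and Atf3 are higher on than off in all 4 BRAF-bearing cultures, Jun falls in COL BRAFp53 and rises in the SI BRAF-bearing cultures, and Egr1 rises in COL BRAF but falls in SI BRAF.

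Among the FOS genes, Fos rose in all 4 BRAF-bearing cultures. In COL BRAF it was 55.4 and 68.0 CPM off and 219 and 214 CPM on, a 3.51-fold rise (log2 change 1.81 ± 0.20, SE, adjusted p = 0.000121). In COL BRAFp53 it was 42.0 and 40.5 CPM off and 169 and 113 CPM on (1.77 ± 0.20, adjusted p = 0.000182). Every on library lay above every off library of its culture. In SI BRAF it went from 13.9 and 11.7 to 34.0 and 43.9 CPM (1.60 ± 0.17, adjusted p = 1.18e-05), or by 1.80 without the library that stood apart. In SI BRAFp53 it went from 9.61 and 7.76 to 23.4 and 23.1 CPM (1.42 ± 0.17, adjusted p = 0.000101). On a scale shared by all 24 libraries, the SI on means were 43.8 and 26.2 CPM and the COL off means 37.5 to 67.7 CPM.

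Fosl1, which encodes FRA-1, gave the largest rise of the members in COL organoids. It went from 2.33 and 2.45 to 21.2 and 26.6 CPM in COL BRAF, 10.01-fold (log2 change 3.32 ± 0.25, adjusted p = 1.10e-05). In COL BRAFp53 it went from 3.71 and 5.44 to 23.0 and 26.6 CPM, 5.42-fold (2.44 ± 0.23, adjusted p = 6.71e-05). Both cultures lay between 21.2 and 26.6 CPM on, and COL BRAF was the lower off. In SI organoids Fosl1 counts were low and uneven: raw counts were 1 and 62 in SI BRAF off, 19 and 40 on, 15 and 8 in SI BRAFp53 off, and 39 and 66 on. The SI changes did not pass the test (0.43 ± 1.08, adjusted p = 0.805, and 2.06 ± 1.14, adjusted p = 0.300). The 2 off libraries of SI BRAF disagreed, and the change in SI BRAF became 4.91 without off replicate 2 (adjusted p = 0.0370), -0.52 without off replicate 1 (adjusted p = 0.734), -0.45 without on replicate 2 (adjusted p = 0.871) and 1.011 without the library that stood apart (adjusted p = 0.605).

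Fosl2, which encodes FRA-2, rose in both BRAF cultures. It was 61.2 and 60.8 CPM off and 98.2 and 79.5 CPM on in COL BRAF (log2 change 0.54 ± 0.14, adjusted p = 0.0152), a call lost without any of 3 libraries (off replicate 1, 0.55, adjusted p = 0.0775; off replicate 2, 0.54, adjusted p = 0.0841; on replicate 1, 0.37, adjusted p = 0.178). In SI BRAF it was 46.7 and 46.4 CPM off and 61.5 and 78.9 CPM on (0.59 ± 0.15, adjusted p = 0.00758), 0.78 without the library that stood apart and 0.40 without the other on library (adjusted p = 0.0982). These rises were about 1.5-fold. The BRAFp53 cultures had 0.22 ± 0.14 in COL (adjusted p = 0.306) and 0.18 ± 0.15 in SI (adjusted p = 0.522), neither passing the test. Fosb was at most 0.404 CPM in all 24 libraries, with 0 to 28 counts, and no change of it passed the test at these depths.

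**Figure D3:**
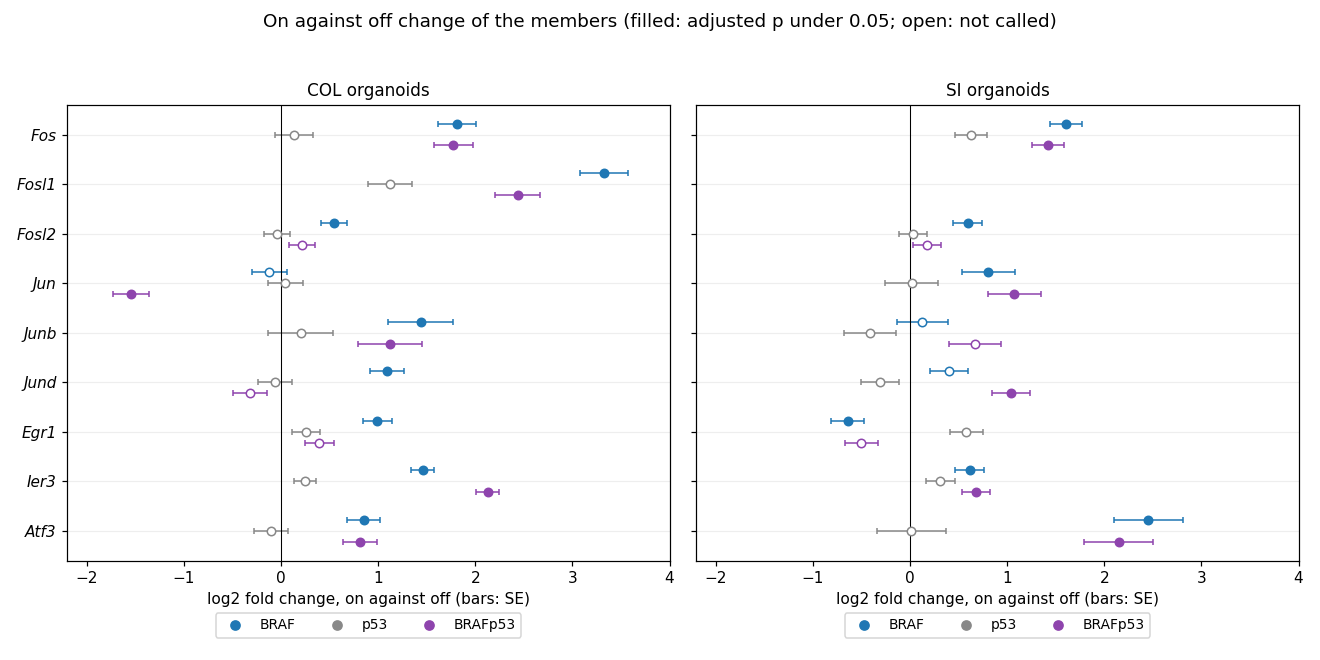
Log2 fold change, on against off, with SE bars for 9 members in COL (left) and SI (right) organoids, coloured by genotype; filled points passed an adjusted p of 0.05 and open points did not. Fosb is left out for its low counts in both tissues and Fosl1 in SI; the p53 points are all open, the COL BRAF points lie at or above 0.54 except Jun (-0.12), and Jun in COL BRAFp53 (-1.54) and Egr1 in SI BRAF (-0.64) are the filled points below 0.

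Among the JUN genes, Jun did not pass the test in COL BRAF, with 21.2 and 24.6 CPM off and 20.2 and 22.01 CPM on (log2 change -0.12, 95% interval -0.47 to 0.23). In COL BRAFp53 it started about 2-fold above the other COL cultures and fell from 41.2 and 53.5 to 15.2 and 17.4 CPM, 2.91-fold lower (-1.54 ± 0.18, adjusted p = 0.000243). In both SI cultures the direction was upward. Jun went from 5.65 and 6.64 to 9.29 and 12.3 CPM in SI BRAF (0.81 ± 0.27, adjusted p = 0.0372), and from 3.56 and 4.50 to 7.57 and 9.39 CPM in SI BRAFp53 (1.07 ± 0.27, adjusted p = 0.0226).

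The 2 SI calls of Jun rest on few libraries. In SI BRAF the change was 1.02 without the library that stood apart (adjusted p = 0.0219), but the call was lost without off replicate 1 (0.69, adjusted p = 0.178), off replicate 2 (0.93, adjusted p = 0.0859) or on replicate 2 (0.59, adjusted p = 0.219). In SI BRAFp53 it was lost without off replicate 1 (0.91, adjusted p = 0.162), off replicate 2 (1.26, adjusted p = 0.0590) or on replicate 2 (0.92, adjusted p = 0.170). The fall of Jun in COL BRAFp53 passed the test without any 1 of its 4 libraries.

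Junb, a JUN protein that is itself induced early, rose in the COL BRAF-bearing cultures. It went from 11.2 and 8.13 to 24.6 and 27.8 CPM in COL BRAF (log2 change 1.44 ± 0.34, adjusted p = 0.0101) and from 11.5 and 11.6 to 23.9 and 26.5 CPM in COL BRAFp53 (1.12 ± 0.33, adjusted p = 0.0358). Both on groups lay above their off groups. The COL BRAF call was lost without off replicate 2 (1.23, adjusted p = 0.0853) or on replicate 2 (1.33, adjusted p = 0.0511), and the COL BRAFp53 call without any 1 of its 4 libraries (1.05 to 1.22, adjusted p = 0.0873 to 0.123). In SI BRAF Junb was 12.5 and 11.3 CPM off and 9.55 and 16.6 CPM on (0.13 ± 0.27, adjusted p = 0.760), with the library that stood apart below and the other on library above the off libraries, and 0.49 without the former (adjusted p = 0.192). In SI BRAFp53 it was 10.9 and 9.82 CPM off and 15.3 and 17.6 CPM on (0.67 ± 0.27, adjusted p = 0.132, and 0.0109 with no filter on low counts).

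Jund, the JUN protein of resting cells, rose in COL BRAF and in SI BRAFp53. It went from 22.3 and 23.2 to 41.6 and 54.9 CPM in COL BRAF (log2 change 1.09 ± 0.18, adjusted p = 0.00127) and from 10.1 and 9.73 to 17.8 and 22.9 CPM in SI BRAFp53 (1.04 ± 0.20, adjusted p = 0.00368). The second call was lost without on replicate 2 (0.85, adjusted p = 0.0513). In COL BRAFp53 Jund was 24.7 and 32.6 CPM off and 23.3 and 22.6 CPM on (-0.32 ± 0.17, adjusted p = 0.241), so that its on libraries lay below its off libraries. In SI BRAF it was 19.3 and 20.1 CPM off and 21.3 and 30.7 CPM on (0.40 ± 0.19, adjusted p = 0.137), and without the library that stood apart the change passed the test (0.66, adjusted p = 0.0211).

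Egr1, the zinc finger factor among the early genes, moved in opposite directions in the BRAF cultures. In COL BRAF it went from 24.6 and 26.2 to 48.3 and 52.8 CPM, 1.99-fold (log2 change 0.99 ± 0.15, adjusted p = 0.000811). In SI BRAF it fell from 9.46 and 10.3 to 6.97 and 5.68 CPM (-0.64 ± 0.17, adjusted p = 0.0114). Without the library that stood apart the SI change was -0.78 (adjusted p = 0.0111). The call was lost without SI off replicate 2 (-0.58, adjusted p = 0.0762) or SI on replicate 2 (-0.51, adjusted p = 0.0952). The BRAFp53 cultures had the same signs without passing edgeR's test: 20.2 and 22.3 CPM off and 28.4 and 27.5 CPM on in COL (0.40 ± 0.15, adjusted p = 0.0871, and 0.0446 with DESeq2), and 8.12 and 7.79 CPM off and 5.34 and 5.87 CPM on in SI (-0.50 ± 0.17, adjusted p = 0.0766).

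Ier3, the early response protein linked to survival, had the highest CPM of the members in COL on organoids. It went from 87.4 and 87.4 to 236 and 243 CPM in COL BRAF (log2 change 1.46 ± 0.11, adjusted p = 1.39e-05) and from 87.0 and 92.5 to 430 and 354 CPM in COL BRAFp53, 4.37-fold (2.13 ± 0.12, adjusted p = 9.99e-06). In the COL p53 culture it was already 205 and 184 CPM off, near the level of COL BRAF on. In SI BRAF it went from 18.3 and 16.0 to 27.8 and 24.5 CPM (0.61 ± 0.15, adjusted p = 0.00703), 0.54 without the library that stood apart (adjusted p = 0.0390) and not called without off replicate 2 (0.52, adjusted p = 0.0763). In SI BRAFp53 it went from 29.2 and 23.5 to 41.3 and 42.9 CPM (0.68 ± 0.15, adjusted p = 0.00909), a call lost without off replicate 2 (0.54, adjusted p = 0.109) or on replicate 2 (0.66, adjusted p = 0.0670). All on libraries of the 4 cultures lay above their off libraries.

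Atf3, the stress-induced factor, gave the largest called rises in SI organoids. It went from 3.06 and 6.06 to 19.5 and 30.8 CPM in SI BRAF, 5.48-fold (log2 change 2.45 ± 0.35, adjusted p = 0.000174, and 2.77 without the library that stood apart), and from 3.11 and 3.34 to 13.7 and 14.9 CPM in SI BRAFp53, 4.43-fold (2.15 ± 0.36, adjusted p = 0.00148). In COL organoids, which started higher, it went from 17.7 and 17.7 to 34.4 and 29.5 CPM in COL BRAF (0.85 ± 0.17, adjusted p = 0.00495) and from 12.4 and 12.4 to 22.2 and 21.4 CPM in COL BRAFp53 (0.81 ± 0.17, adjusted p = 0.00760). On the scale shared by all 24 libraries, on means were 28.7 and 19.8 CPM in COL and 28.3 and 16.1 CPM in SI, so that the tissues overlapped on but not off. The COL BRAF call was lost without on replicate 1 (0.72, adjusted p = 0.0559).

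In the p53 cultures no member passed the test. In COL p53, 27 genes passed (0.142% of those tested), and 0 of 10 members did with edgeR or limma-voom and 1, Fosl1, with DESeq2 or with edgeR without a filter on low counts, while 2 had an unadjusted p under 0.05 (Fosl1 and Ier3), as had 8.34% of all genes. Fosl1 was 4.41 and 5.91 CPM off and 12.3 and 10.1 CPM on (log2 change 1.12 ± 0.23, adjusted p = 0.106 with edgeR and 0.000544 with DESeq2 or 0.000132 with no filter on low counts). Its on libraries lay above its off libraries. Ier3 was 205 and 184 CPM off and 241 and 220 CPM on (0.25 ± 0.11, adjusted p = 0.597). The remaining COL p53 changes ran from -0.10 for Atf3 to 0.26 for Egr1, with Fosb (0.99 ± 1.28) at its low counts.

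In SI p53, 0 of all genes (0%) passed with edgeR, with 873 (5.18%) at an unadjusted p under 0.05, 55 passing with DESeq2 and 1 with limma-voom. Of the 10 members 0 passed with edgeR, 0 passed with DESeq2 or limma-voom, and 3 members had an unadjusted p under 0.05 (Fos, Fosb and Egr1). Fos was 6.97 and 7.32 CPM off and 10.6 and 11.5 CPM on (log2 change 0.63 ± 0.17, adjusted p = 0.476). Egr1 was 6.24 and 5.93 CPM off and 8.83 and 9.35 CPM on (0.58 ± 0.17, adjusted p = 0.566). For both genes the on libraries lay above the off libraries. Ier3 was 17.4 and 19.8 CPM off and 24.8 and 21.3 CPM on (0.31 ± 0.15, adjusted p = 0.973). Fosb was listed at 0 counts in both off libraries and at 17 and 2 counts on. The others lay between -0.41 for Junb and 0.47 for Fosl1, with intervals that include 0.

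Direct tests of the difference between 2 responses ask whether tissue or the second allele went with a different change. COL BRAFp53 less COL BRAF gave 2 of 10 members, Jun (-1.42 ± 0.26, adjusted p = 0.0406) and Jund (-1.40 ± 0.25, adjusted p = 0.0404), where 0.907% of genes passed. The change of Jun was -1.54 in COL BRAFp53 and -0.12 in COL BRAF, and that of Jund was -0.32 and 1.09. Each call was lost when any 1 of 7 of the 8 libraries was left out (COL BRAFp53 off replicate 1 being the exception), with adjusted p up to 0.157 for Jun and 0.151 for Jund. The other members lay between -0.89 (Fosl1, adjusted p = 0.171) and 0.67 (Ier3, adjusted p = 0.0648). Ier3 passed under 3 of its 14 alternatives (DESeq2, no filter on low counts, and a minimum of 10 counts in every library, lowest adjusted p = 0.00278), where 3 members were called. SI BRAFp53 less SI BRAF gave 0 of 10 members with edgeR, DESeq2 and limma-voom (8.2% of genes passed edgeR), with 1, Jund, at an unadjusted p under 0.05 (0.64 ± 0.27, adjusted p = 0.183).

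SI less COL in the BRAF cultures gave 4 of 10 members, where 10.7% of genes passed. Egr1 (-1.59 ± 0.20, adjusted p = 5.49e-05) and Ier3 (-0.80 ± 0.18, adjusted p = 0.00734) had negative differences, and Atf3 a positive one (1.65 ± 0.42, adjusted p = 0.0152). The changes themselves were -0.64 in SI and 0.99 in COL for Egr1, 0.61 and 1.46 for Ier3, and 2.45 and 0.85 for Atf3. Without the library that stood apart these were -1.74, -0.89 and 1.95, all still called. The Atf3 call was lost without COL BRAF on replicate 2 (1.53, adjusted p = 0.0763), SI BRAF off replicate 1 (1.26, adjusted p = 0.0750) or SI BRAF on replicate 2 (1.26, adjusted p = 0.0895). Fosl1 (-2.93 ± 0.91, adjusted p = 0.0464) was the fourth, and its call was lost with DESeq2 (adjusted p = 0.109), with limma-voom (adjusted p = 0.433), without the library that stood apart (-2.34, adjusted p = 0.166) and without any of the 4 COL BRAF libraries (-3.07 to -2.77, adjusted p = 0.0690 to 0.125), and its sign turned without SI BRAF off replicate 2 (1.62, adjusted p = 0.665). The remaining members lay between -1.27 for Junb (adjusted p = 0.0997) and 0.97 for Jun (adjusted p = 0.0719), with Fosb at its low counts left aside. Of these, Jun and Junb each passed under 4 of 14 alternatives and Jund under 1 (lowest adjusted p = 0.0185, 0.000713 and 0.0432), and the number of members called was 5 with DESeq2, 6 with no filter on low counts and 6 with the replicate number as a block.

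SI less COL in the BRAFp53 cultures also gave 4 of 10, where 3.52% of genes passed. Jun (2.65 ± 0.34, adjusted p = 0.000258) and Jund (1.39 ± 0.27, adjusted p = 0.00805) had positive differences, with changes of 1.07 in SI and -1.54 in COL for Jun and of 1.04 and -0.32 for Jund. Egr1 (-0.86 ± 0.20, adjusted p = 0.0210) and Ier3 (-1.41 ± 0.18, adjusted p = 0.000275) had negative ones, with changes of -0.50 in SI and 0.40 in COL for Egr1 and of 0.68 and 2.13 for Ier3. The Jund call was lost without SI BRAFp53 on replicate 2 (1.21, adjusted p = 0.0561), and the Egr1 call without any 1 of 6 libraries, namely both COL on, both SI off and both SI on libraries (-0.93 to -0.81, adjusted p = 0.0504 to 0.0928). Atf3 lay at 1.37 ± 0.42 (adjusted p = 0.0827, passing under 2 of 14 alternatives) and the others between -0.42 for Junb and 0.59 for Fosb. SI less COL in the p53 cultures gave 0 of 10 members with edgeR, DESeq2 and limma-voom and 0 at an unadjusted p under 0.05, where 0.117% of genes passed.

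**Figure D4:**
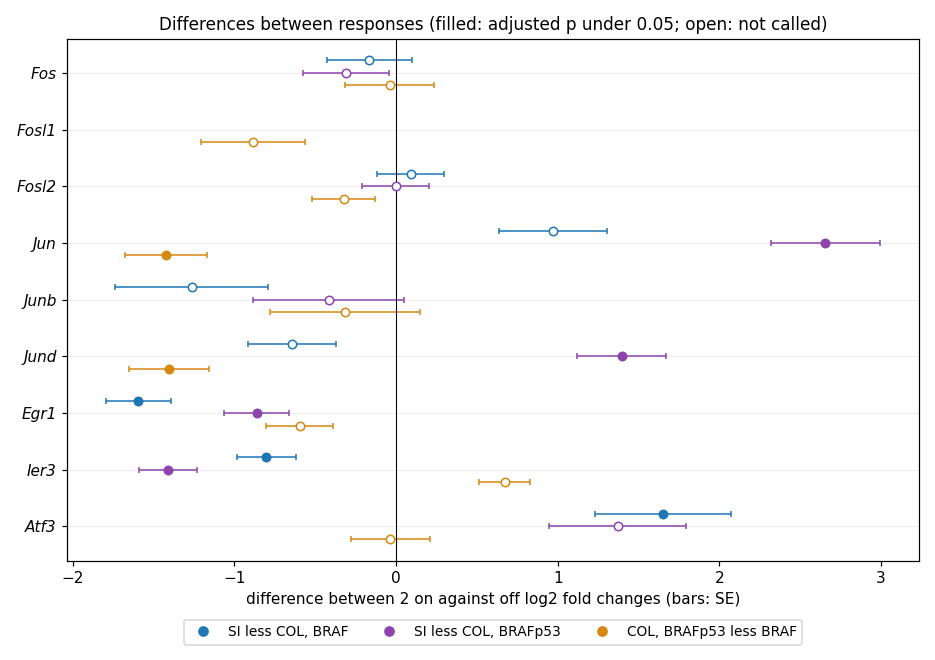
Differences between 2 on against off responses (log2) with SE bars for 9 members; blue is SI less COL in BRAF, purple SI less COL in BRAFp53 and orange COL BRAFp53 less COL BRAF, and filled points passed an adjusted p of 0.05. Jun and Jund are negative in the orange and positive in the purple comparison, Egr1 and Ier3 are negative in both tissue comparisons, and Fos lies within 0.31 of 0 throughout; Fosb is left out for low counts, as is Fosl1 in the tissue comparisons.

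These comparisons share libraries: COL BRAFp53 enters 2 of the tests that call Jun and Jund. Fos, by contrast, differed by -0.17 (95% interval -0.68 to 0.35) and -0.31 (-0.83 to 0.21) between tissues in the BRAF and BRAFp53 cultures, and by -0.04 (-0.58 to 0.50) between the COL genotypes.

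The makeup of the 2 families, as shares of summed CPM per kb, shifted with these changes. Fos made 75.8% and 79.4% of FOS family transcripts in COL BRAF off and 81.9% and 81.0% on. In SI BRAF its share went from 54.8% and 48.3% to 68.8% and 68.3%, and in SI BRAFp53 from 45.8% and 43.7% to 66.1% and 63.0%. The Fosl2 share was lower on in both, going from 44.7% and 46.5% to 30.3% and 29.8% in SI BRAF and from 52.6% and 55.4% to 31.6% and 33.7% in SI BRAFp53. In every other culture the Fosl2 share was lower on too, as in SI p53 (60.6% and 57.0% off, 52.4% and 44.2% on) and COL p53 (15.6% and 16.0% off, 12.3% and 14.9% on). The on and off shares of Fosl2 overlapped in no culture. The Fos share went from 39.1% and 42.1% to 46.9% and 54.6% in SI p53. In COL p53 the Fos share went from 79.3% and 76.4% to 76.3% and 72.6%. Fosl1 reached 9.16% and 11.7% in COL BRAF on, from 3.69% and 3.31%, and 12.4% and 19.4% in COL BRAFp53 on, from 7.02% and 10.2%. In COL p53 the Fosl1 share went from 4.98% and 7.54% to 11.3% and 12.3%, near that of COL BRAF on. The summed FOS family level went from 28.0 and 32.4 to 103 and 101 CPM per kb in COL BRAF, and from 11.9 and 11.1 to 23.3 and 31.0 in SI BRAF.

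Within the JUN family, Jun and Junb exchanged places in COL BRAFp53. The Jun share went from 39.5% and 40.6% to 16.3% and 17.8%, and the Junb share from 15.3% and 12.2% to 35.7% and 37.8%, while Jund held 45.2% and 47.2% off and 48.0% and 44.4% on. In COL BRAF the Jun share fell from 26.7% and 30.7% to 15.1% and 13.3%, beside the higher Junb and Jund, while the level of Jun did not pass the test. The summed JUN family level was 29.9 and 37.4 CPM per kb off and 26.2 and 27.9 on in COL BRAFp53, and 22.4 and 22.4 off and 37.8 and 46.6 on in COL BRAF. SI BRAF and SI BRAFp53 on libraries kept Jund as the largest share, at 54.1% to 64.4%. These shares carry no test of their own, and they depend on how reads shared with opposite-strand genes were counted.

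**Figure D5:**
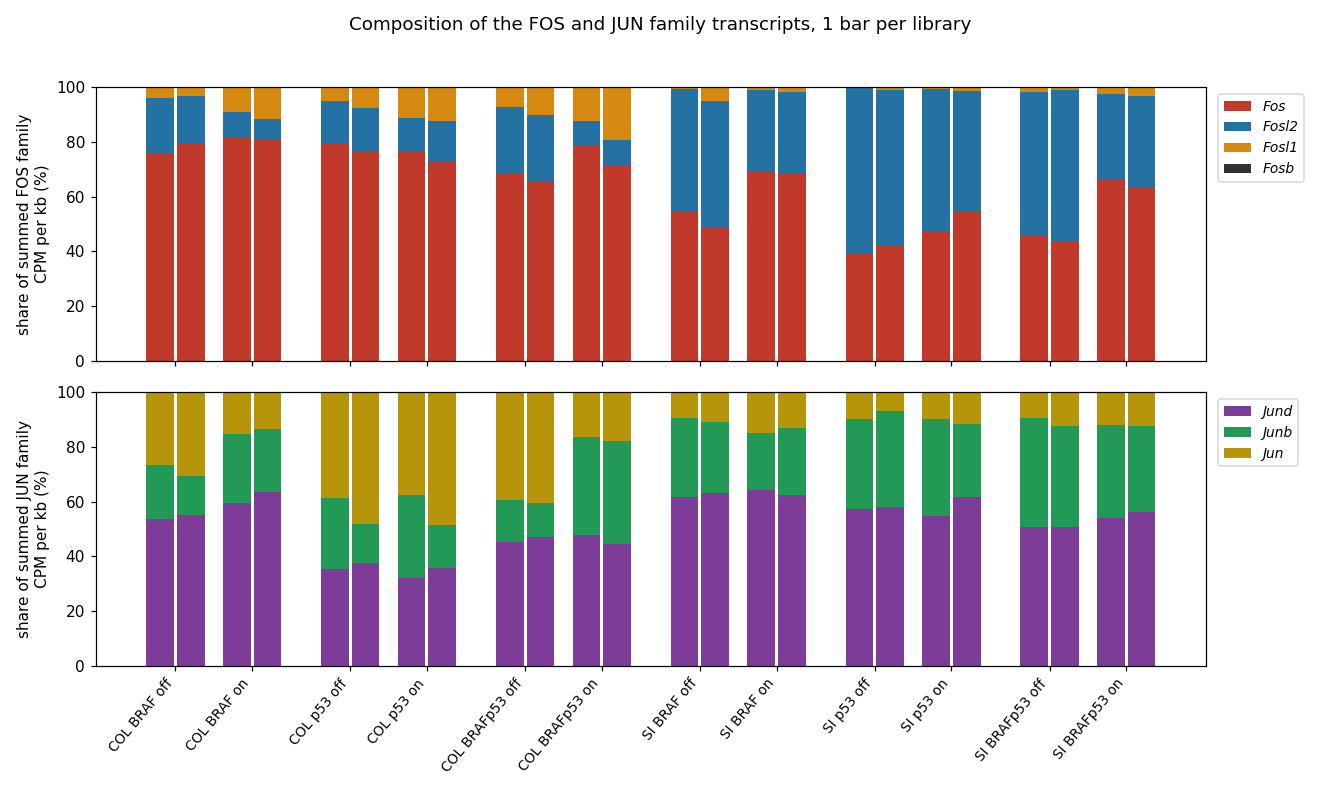
Shares (%) of the FOS family (top) and JUN family (bottom) in summed CPM per kb, 1 bar per library, for the 24 libraries grouped by culture and state. The Fos share is higher on than off in every culture except COL p53, and the Fosl2 share is lower on in every culture. Fosl1 is visible mainly in COL, and the Jun share in COL BRAFp53 drops from about 40% to about 17% while Junb expands. Fosb is at most 0.415% in any library.

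Markers of other cells moved with some of these results. The summed level of 13 stromal, endothelial and immune markers was 8.39 to 9.39 CPM off and 18.0 to 20.1 CPM on in COL BRAF, 9.34 to 10.5 CPM off and 20.2 to 23.1 CPM on in COL BRAFp53, 3.65 to 4.24 CPM off and 5.61 to 6.73 CPM on in SI BRAF, and 3.82 to 5.34 CPM off and 8.54 to 9.22 CPM on in SI BRAFp53. It was 11.02 to 14.5 CPM off and 13.8 to 18.8 CPM on in COL p53, and 3.82 to 5.16 CPM off and 3.93 to 4.03 CPM on in SI p53. In each of the COL BRAF-bearing cultures 2 of the 10 markers tested rose, beside 10.3% and 9.95% of all genes, as did 0 of 4 in SI BRAF and 1 of 4 in SI BRAFp53, beside 17.5% and 6.98%. Vim and Cd68 made most of it: Vim went from 1.43 and 0.927 to 8.36 and 7.32 CPM and Cd68 from 4.17 and 4.48 to 8.43 and 7.98 CPM in COL BRAF. The other 11 markers were each at most 3.33 CPM (Pdgfrb) in any library. The sum of 8 epithelial markers was 11833 to 12543 CPM off and 27736 to 29659 CPM on in COL BRAF, 12154 to 12682 off and 27589 to 34937 on in COL BRAFp53, 10621 to 10727 off and 19274 to 21143 on in SI BRAF, and 9203 to 9770 off and 13696 to 14021 on in SI BRAFp53, and 7, 7, 7 and 5 of the 8 rose in these cultures. It was 22255 to 22276 CPM off and 22098 to 31724 CPM on in COL p53, and 9739 to 9745 CPM off and 9406 to 9544 CPM on in SI p53. Their part in the changes of the members was not tested.

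The other genes of the pathway, in lists chosen with earlier results of these data known, are given by their counts, beside 19.9% of all genes called in COL BRAF, 17.7% in COL BRAFp53, 31.7% in SI BRAF and 11.5% in SI BRAFp53. Of the immediate early genes outside the 10 members, 13 rose and 1 fell of 29 tested in COL BRAF, 9 rose and 0 fell in COL BRAFp53, 8 rose and 5 fell of 27 in SI BRAF, and 8 rose and 1 fell in SI BRAFp53. Their median log2 changes were 0.78, 0.40, 0.16 and 0.08, beside the medians over all genes given above. Klf4, a zinc finger factor of differentiating gut epithelium, rose by 1.83 ± 0.16 in SI BRAFp53 (log2, adjusted p = 1.05e-05). In SI BRAF without the library that stood apart, the changes were 1.98 for Klf4, 2.07 for Rhob and 2.04 for Dusp1. In SI BRAF, where Egr1 fell, 8 genes of this list rose and 5 fell. Among those that fell were Ier2 (-0.96 ± 0.25, adjusted p = 0.0104) and Nr4a2 (-0.95 ± 0.27, adjusted p = 0.0163), both rapid early response genes. Without the library that stood apart these were -0.66 (adjusted p = 0.0883) for Ier2 and -1.22 (adjusted p = 0.0126) for Nr4a2. Of leucine zipper partners of AP-1, 3 of 8 tested rose in COL BRAF, 2 rose and 1 fell in COL BRAFp53, 4 rose in SI BRAF, and 2 rose and 1 fell in SI BRAFp53 (medians 0.55, 0.23, 0.49 and 0.44). Batf2 rose by 2.83 ± 0.46 in COL BRAF (adjusted p = 0.00137) and 2.41 ± 0.46 in COL BRAFp53 (adjusted p = 0.00415). In SI BRAF, Maf rose by 2.54 ± 0.24 (adjusted p = 5.12e-06, and 2.66 without the library that stood apart), and its change was smaller in SI BRAFp53 (difference -1.90 ± 0.33, adjusted p = 0.00344, and -2.01 without that library).

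Among upstream regulators, kinases and ternary complex factors, 3 rose and 2 fell of 19 in COL BRAF, 2 and 1 in COL BRAFp53, 2 and 1 of 18 in SI BRAF, and 2 and 0 in SI BRAFp53 (medians 0.21, 0.0032, 0.11 and 0.24), shares near the background, and below it in SI BRAF with every library kept. Elk3, a ternary complex factor, rose by 2.20 ± 0.24 in COL BRAF (adjusted p = 0.000109), and Mkl2, a coactivator of serum response factor, fell by 0.57 in COL BRAF (adjusted p = 0.00477) and by 0.56 in COL BRAFp53 (adjusted p = 0.00608). Of genes linked to AP-1 as targets, 6 of 15 rose and 0 fell in each COL BRAF-bearing culture, 6 rose and 3 fell of 12 in SI BRAF, and 5 rose and 0 fell in SI BRAFp53 (medians 0.38, 0.35, 0.43 and 0.41). Plaur, the urokinase receptor, rose by 2.12 ± 0.20 in COL BRAF (adjusted p = 3.99e-05), 2.29 ± 0.20 in COL BRAFp53 (adjusted p = 4.48e-05) and 2.97 ± 0.31 in SI BRAFp53 (adjusted p = 3.62e-05). In SI BRAF its change was 2.82 without the library that stood apart. Lif, a cytokine, rose by 2.16 ± 0.29 in COL BRAFp53 (adjusted p = 0.000536). Mmp14, a membrane-bound matrix protease, passed at 3.88 in SI BRAF (adjusted p = 0.0102) and was -0.28 without the library that stood apart (adjusted p = 0.893).

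Of 12 other genes of the integrated stress response, the pathway in which Atf3 follows ATF4, 9 rose in SI BRAF, 7 in SI BRAFp53, 2 in COL BRAF and 6 in COL BRAFp53, and 0 fell in these 4 comparisons (medians 0.73, 0.72, 0.13 and 0.59). Slc7a11, the cystine transporter subunit, rose by 3.70 ± 0.43 in SI BRAF (adjusted p = 3.20e-05) and 4.32 ± 0.43 in SI BRAFp53 (adjusted p = 2.54e-05), and its response differed from COL by 2.17 ± 0.50 (adjusted p = 0.00778) and 2.77 ± 0.48 (adjusted p = 0.00363). Without the library that stood apart the SI BRAF rise was 4.04 and its difference from COL 2.49. By the direct test, 5 of the 12 had a higher change in SI than in COL in the BRAF cultures and 1 of 12 in the BRAFp53 cultures, where 10.7% and 3.52% of all genes passed in either direction. Heat shock genes gave 3 rising and 2 falling of 11 in COL BRAF, 2 and 0 in COL BRAFp53, 0 and 2 of 10 in SI BRAF, and 0 and 0 in SI BRAFp53 (medians 0.12, 0.10, -0.066 and -0.070), and outside COL BRAF these shares were near or below the background with every library kept. Among 13 p53 target genes, 10 rose and 1 fell in COL BRAF, 9 and 1 in COL BRAFp53, 2 and 2 in SI BRAF, and 3 and 1 in SI BRAFp53 (medians 0.95, 0.73, -0.18 and 0.25). Gdf15, a stress cytokine, rose by 2.27 ± 0.52 in COL BRAF (adjusted p = 0.00905) and Sesn1 fell by 1.16 (adjusted p = 0.000523). In COL BRAFp53 Gdf15 changed by 2.41 ± 0.52 (adjusted p = 0.00838) and Sesn1 by -0.67 (adjusted p = 0.0134). Without the library that stood apart, the SI BRAF counts were 8 rising and 5 falling immediate early genes, 4 and 0 leucine zipper partners, 3 and 2 upstream regulators, 5 and 3 genes linked to AP-1, 8 and 0 stress response genes, 0 and 5 heat shock genes and 2 and 1 p53 targets, where 29.7% of all genes passed. In the p53 cultures 0 genes of these 7 lists passed edgeR's test, 24 of 107 tested having an unadjusted p under 0.05 in COL and 12 of 100 in SI, beside 8.34% and 5.18% of all genes.

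Genes whose group means over the 12 groups were most like a member's are given as a description, by Pearson's r of log2 CPM across 12 groups, among about 9060 genes with enough expression. The groups share tissue and donor differences, so r reflects these as well as on against off. Closest to Fos were the actin-binding gene Cnn2 (r = 0.99) and Ahnak (0.98). Closest to Fosl1 were the keratin Krt18 (0.99), the collagen chain gene Col18a1 (0.99) and Tnks1bp1 (0.99), and closest to Ier3 were Tirap (0.99), the caveolin Cav2 (0.98) and Tagln2 (0.98). For Atf3 they were Rin1 (0.98), Clca1 (0.97) and Atp6v0a1 (0.96), for Jun they were Utrn (0.97), the ETS factor Ets2 (0.97) and Mbnl2 (0.96), and for Egr1 they were Zcchc2 (0.97), Mlph (0.97) and Ripor1 (0.97). Junb had the lowest best match, Dedd2 at 0.92, while Jund was closest to Stard10 (0.96) and Fosl2 to Cc2d1a (0.97).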

How the data were processed

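RNA-seq libraries of SI and COL organoids were read from 2 deposited tables of raw counts per Ensembl gene. The authors trimmed paired-end HiSeq reads (Trimmomatic 0.36) and counted them per gene with STAR 2.5.2b on mm10; the labels name mm9 as well, and the annotation release and use of strand are not given in the sources used here. Of 45706 identifiers, 45143 matched GENCODE M21, from which symbols, exon lengths and overlaps were taken. The members and gene lists were chosen with earlier results of these data known.

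Counts were fitted per tissue (12 libraries, 1 mean per group) with edgeR 4.0.16 in R 4.3.3: TMM scaling, filterByExpr, the quasi-likelihood test, and Benjamini-Hochberg adjustment over all genes, called at adjusted p under 0.05. Responses of the 2 tissues were set against each other in 1 model of all 24 libraries, and off organoids were compared on counts summed per culture (3 against 3). The code was tested on simulated data. Intervals are nominally 95% (1.96 SE). They are narrower than the quasi-likelihood test implies at these numbers of libraries, so they cover less than 95%. Duplicates differed by more than counting noise. Intervals and detection limits of 3 counts cover counting and library spread only. All 10 members passed the filter in every comparison. Alternatives were RLE size factors, 2 other filters (none, or 10 counts as the minimum of each library), limma-voom (limma 3.58.1), DESeq2 1.42.0, the replicate number as a block, and leaving out each library or culture. From the lists, genes named are at most 4 per direction and comparison in all, by size of change among those called with an average log2 CPM of at least 1. A few genes that these rules name are not reported here. Like genes needed an average log2 CPM of at least 3. Promoters came from RefSeq for 8 of 10 members; the half-site and octamer were added after the sequences had been seen. The replicate numbers do not pair libraries (correlation of deviations -0.04 to 0.06).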

Additional observations from a re-analysis of the deposited data

Results flagged for a closer look

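These 10 results stood out because a response differed between cultures by a test of the difference itself (edgeR, adjusted p under 0.05). COL BRAFp53 less COL BRAF was -1.42 on the log2 scale for Jun (changes of -1.54 and -0.12) and -1.40 for Jund (-0.32 and 1.09). SI BRAF less COL BRAF was -2.93 for Fosl1 (0.43 and 3.32), -1.59 for Egr1 (-0.64 and 0.99), -0.80 for Ier3 (0.61 and 1.46) and 1.65 for Atf3 (2.45 and 0.85). SI BRAFp53 less COL BRAFp53 was 2.65 for Jun (1.07 and -1.54), 1.39 for Jund (1.04 and -0.32), -0.86 for Egr1 (-0.50 and 0.40) and -1.41 for Ier3 (0.68 and 2.13). The single changes come from the fit of each tissue and the tissue differences from 1 fit of both. Genotype and donor, and tissue, donor, dose, day and medium, cannot be told apart in these differences, nor can donor sex in those of BRAFp53 between tissues. With 2 libraries a group, no outlier test was run on the members, and SI BRAF on replicate 1 was set apart by its Xist level.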

How the results depend on the processing

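Over 80 member results (each member in 6 on against off comparisons, 1 comparison of off organoids and the differences that passed), 836 alternative values were computed; 746 kept direction and side of the threshold, 57 no longer passed it, 6 newly passed, and 27 turned direction, of which 1 belonged to a result that had passed (Fosl1, SI less COL in BRAF). RLE size factors changed no direction or call in the 80, and a minimum of 10 counts in every library gave a value for 69 of them and changed none of those. That minimum moved the number of members called from 2 to 3 in COL BRAFp53 less BRAF (Ier3 passed) and from 4 to 3 in SI less COL in BRAF (Fosl1 was not tested). Low counts limit Fosb throughout, and Fosl1 in SI had 1 to 66 counts a library.

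For the number of members called, COL p53 went from 0 to 1 with DESeq2 and to 1 with no filter on low counts. With the replicate block, COL BRAFp53 less BRAF went from 2 to 0 (Jun -1.42, adjusted p = 0.0650; Jund -1.38, adjusted p = 0.0903), and no other call was lost among the 70 member results it was run on, which leave out the off organoids; the numbers do not pair the libraries. Leaving out single libraries gave 0 to 2 members for COL BRAFp53 less BRAF, 3 to 7 for SI BRAF, 2 to 5 for SI BRAFp53, 2 to 5 for SI less COL in BRAF and 2 to 4 in BRAFp53. The cause was not tested beyond the smaller number of samples.

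Over all genes, with every library kept, calls moved by over 1.5 times in 6 comparisons: COL p53 27 (324 with DESeq2, 569 with no filter, 15 with the block), SI p53 0 (55, 155 with no filter, 1 with limma-voom), COL BRAFp53 less BRAF 172 (1366, 1312, 17 with the block, 391 with 10 counts in every library), SI BRAFp53 less BRAF 1383 (2089 with DESeq2), SI less COL in BRAFp53 693 (1554 with DESeq2, 1548 with no filter) and in p53 23 (155, 488, 39 with 10 counts). Leaving out single libraries (in the off comparison, cultures) moved calls by over 1.5 times also in COL BRAF (3776, then 1961 to 2489), COL BRAFp53 (3360, 1699 to 2399), SI BRAFp53 (1941, 887 to 1333), COL less SI off (5270, 2479 to 5381) and SI less COL in BRAF (2108, 1202 to 1833), gave 0 to 279 in COL BRAFp53 less BRAF, 597 to 2128 in SI BRAFp53 less BRAF, 235 to 723 and 3 to 46 in SI less COL in BRAFp53 and p53, and 0 to 56 in COL p53, and kept SI BRAF (5345) within 3573 to 5343.

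Direction turned for Atf3 in SI p53 with limma-voom (-0.056) and the replicate block (-0.070). Leaving out single libraries also turned direction. In COL p53 the ranges were -0.12 to 0.34 for Fos, -0.12 to 0.025 for Fosl2, -0.21 to 0.25 for Jun, -0.30 to 0.85 for Junb, -0.20 to 0.052 for Jund and -0.35 to 0.18 for Atf3. In SI p53 they were -0.98 to 1.43 for Fosl1, -0.14 to 0.19 for Fosl2, -0.36 to 0.53 for Jun and -0.64 to 0.45 for Atf3. Fosb ran from -0.71 to 6.28 in COL BRAFp53 and from -0.12 to 4.95 in SI BRAFp53. In SI BRAF, Fosl1 ran from -0.52 to 4.91 and Junb from -0.33 to 0.49. For SI less COL in BRAF, Fosl1 ran from -3.81 to 1.62. In off organoids, Fosb ran from -0.16 to 2.82 and Jund from -0.050 to 0.58.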
